A study of Mus musculus with 12 samples.

Results

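The endosomal Toll-like receptors of the mouse and their transport protein, 8 genes named Tlr3, Tlr7, Tlr8, Tlr9, Tlr11, Tlr12, Tlr13 and Unc93b1, were followed through spleen RNA of mice on 3 diets. All probes that the array annotation assigned to these symbols were taken, which gave 11 of 45281 probes and 8 of 19057 genes with a symbol, with 2 probes each for Tlr9, Tlr13 and Unc93b1. The animals were 12 male C57BL/6J mice that arrived at an age of 6 weeks, were acclimatized for 3 weeks and then ate a low fat control diet, a high fat diet with corn oil (HFD-CO) or a high fat diet with eicosapentaenoic and docosahexaenoic acid, EPA and DHA, (HFD-ED) for 8 weeks, with 4 mice in each group. By weight, 5% of the control diet was fat, made up of 2.5% corn oil and 2.5% coconut oil. The HFD-CO diet had 15% fat, of which 5% was corn oil and 10% coconut oil, and 1% cholesterol was added. In the HFD-ED diet, 2% of corn oil gave way to an EPA and DHA oil, which holds the n-3 fatty acids typical of fish, so that 3% corn oil remained beside 10% coconut oil and 1% cholesterol. HFD-ED therefore differed from HFD-CO in its corn oil and its EPA and DHA oil, while both high fat diets differed from the control in several ingredients, among them amount of fat, oils, cholesterol, casein, sucrose, starch and choline. No engineered allele or other treatment is named for any of the 12 animals, which were selected from larger groups to represent their diet in body weight, plasma triglyceride and plasma cholesterol, and which of them shared a cage is not given in the sources used here.

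Toll-like receptors of the endosome recognize nucleic acids and microbial proteins that have been taken up from outside the cell. Tlr3 binds double-stranded RNA, Tlr7 and Tlr8 recognize single-stranded RNA and its breakdown products, Tlr13 recognizes bacterial ribosomal RNA, and Tlr9 recognizes DNA with unmethylated CpG. Tlr11 and Tlr12 recognize profilin, an actin-binding protein of protozoan parasites, and have no functional counterpart in humans. Unc93b1 is a membrane protein that escorts these receptors from the endoplasmic reticulum to endosomes, where proteases cut their ectodomains, and mice without working Unc93b1 do not respond through them. In spleen, Tlr7 and Tlr9 are known from plasmacytoid dendritic cells and B cells, and Tlr3, Tlr11 and Tlr12 from the conventional dendritic cells of the CD8 alpha lineage (cDC1).

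Promoter sequences from RefSeq (mouse build GRCm38.p6, 250 bases before to 50 bases after the start of the gene) were given for 6 of the 8 genes, and not for Tlr7 and Unc93b1. Tlr11 is shown because its probe had the smallest p of the 11 in HFD-ED versus control, and Tlr13 because it was the receptor with a mean over 7.5 that had a promoter entry. Capitals mark the matches to 2 motifs searched on both strands. These were GAAANNGAAA, a pair of the GAAA repeats bound by interferon regulatory factors, and AGGAAGT, a core bound by the myeloid and B cell factor PU.1. The Tlr11 promoter lies on the plus strand at chr14:50357664-50357963 and the Tlr13 promoter on the plus strand at chrX:106143025-106143324.
Tlr11: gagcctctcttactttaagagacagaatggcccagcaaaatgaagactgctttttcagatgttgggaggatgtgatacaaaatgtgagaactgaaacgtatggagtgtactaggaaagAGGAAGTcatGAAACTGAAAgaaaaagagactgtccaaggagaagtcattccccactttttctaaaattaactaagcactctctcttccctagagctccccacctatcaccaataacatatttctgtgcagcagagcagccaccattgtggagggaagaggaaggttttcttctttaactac
Tlr13: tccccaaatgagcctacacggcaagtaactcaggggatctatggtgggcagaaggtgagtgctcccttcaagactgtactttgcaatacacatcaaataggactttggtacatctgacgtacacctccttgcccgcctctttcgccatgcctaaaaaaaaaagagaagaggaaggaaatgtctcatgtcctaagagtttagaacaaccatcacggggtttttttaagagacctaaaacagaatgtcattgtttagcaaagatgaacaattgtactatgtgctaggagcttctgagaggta
In the Tlr11 promoter, the PU.1 core spans bases -132 to -126 and the interferon regulatory factor pair bases -122 to -113 from the start site, both on the strand of the gene and without overlap. Among 32851 promoters of the same length, 3.44% held the pair and 9.35% held the PU.1 core. The PU.1 core was also present in the promoters of Tlr9, at bases 10 to 16 on the opposite strand, and Tlr12, at bases -64 to -58. Neither motif was present in the windows of Tlr3, Tlr8 and Tlr13. These matches describe the letters only. In the RefSeq gene order, Tlr7 and Tlr8 were direct neighbours on chromosome X, and Tlr11 on chromosome 14 lay between the olfactory receptor genes Olfr735 and Olfr736.

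Each mouse was measured on 1 Illumina MouseWG-6 array, and levels are given in log2 units after the variance stabilization and quantile normalization of the authors, which compresses differences between dim signals. The values ran from 6.95 to 14.79, array medians from 7.1399 to 7.1404, and 75.2% of the probes had a mean under 7.5. The number of arrays limits the precision. The tissue label and the titles name spleen, but a protocol text names skeletal muscle. None of 6 skeletal muscle markers was above background, whereas 10 of 11 markers of the red pulp macrophage, the phagocyte that clears old red cells in the spleen, were. Before any comparison, HFD-ED replicates 2, 3 and 4 stood apart from the other 9 mice, with scores of 17.3, 37.5 and 15.03 on a first principal component that held 42.9% of the variance. HFD-ED replicate 1 had a score of -8.41 and lay among the other diets. Over 12 erythroid markers, the genes of red cell formation, the deviation from the mean of the 12 mice was 0.82, 1.45 and 0.80 log2 units in these 3 mice, and HFD-ED replicate 1 by -0.55. HFD-CO replicate 4 stood apart with pancreatic enzyme genes, where 5 markers deviated by 5.23 log2 units on average.

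Signal above background was present for 7 of the 8 genes. Background was taken from 1506 probes for olfactory and vomeronasal receptors, which spleen is not known to use, and whose means had a median of 7.07, a 95th percentile of 7.13 and a maximum of 7.33. Tlr7, Tlr11, the first probe of Tlr13 and both probes of Unc93b1 had means above every one of these 1506 probes. Tlr3, Tlr8, Tlr12 and the second probe of Tlr13 had means between the percentile and the maximum, and both probes of Tlr9 had means under the percentile. A probe at background does not show that a transcript was lacking. The probe of Pax5, the transcription factor that defines B cells, had a mean of 7.08, although 6 of 7 B cell markers were above background, and Cd8a had a mean of 7.08 as well.

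**Figure D1:**
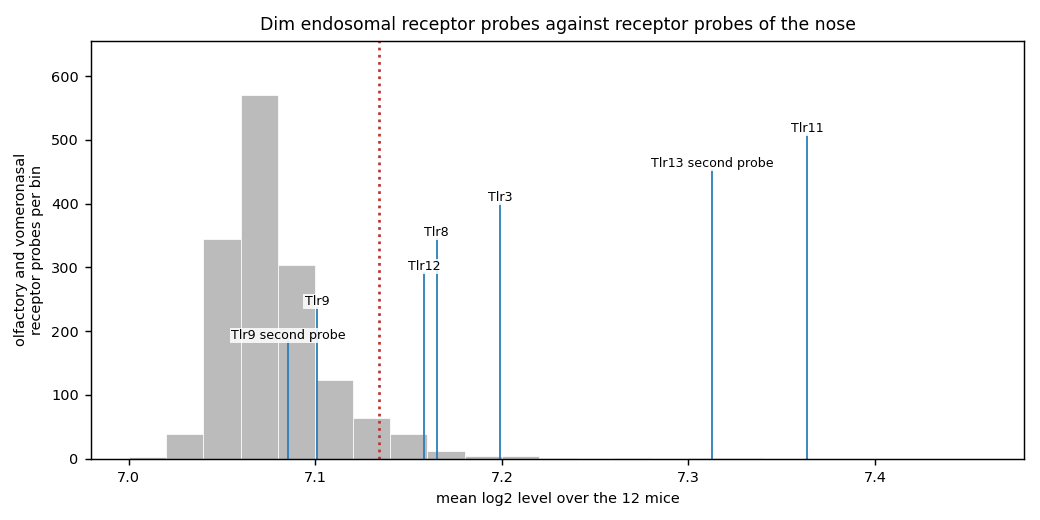
Grey bars count olfactory and vomeronasal receptor probes (vertical axis) by their mean log2 level over the 12 mice (horizontal axis), and blue lines mark endosomal receptor probes with a mean under 7.5; the height of a blue line has no meaning. The red dotted line is the 95th percentile at 7.13, and only the 2 Tlr9 probes lie to the left of it.

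Tlr7 had the widest spread between mice among the probes of the receptors, with a range of 0.64 log2 units over the 12 mice. The control mice had levels of 8.72, 8.89, 8.89 and 8.97 for replicates 1 to 4. The HFD-CO mice had levels of 9.03, 8.87, 8.92 and 8.68, and the HFD-ED mice had levels of 9.08, 8.86, 8.59 and 8.44. The HFD-ED group thus held both the highest mouse of all, replicate 1, and the lowest pair, replicates 3 and 4, and overlapped with both other diets. Means were 8.87 ± 0.11 (SD, n = 4) for control, 8.87 ± 0.15 for HFD-CO and 8.74 ± 0.28 for HFD-ED. The difference between HFD-ED and control was -0.13 ± 0.13 log2 units (SE), with an interval of 95% from -0.41 to 0.15 and an adjusted p of 0.808 in limma. HFD-ED versus HFD-CO gave -0.13 (adjusted p of 0.814) and HFD-CO versus control 0.0059 (adjusted p of 0.99996), so no neighbours in the order of the diets differed beyond their spread. Without HFD-ED replicate 1 the difference from control was -0.24 (adjusted p of 0.384), and without replicate 4 it was -0.025. The difference from HFD-CO was -0.25 and -0.031 without the same mice. In whole spleen, fewer cells that use a gene and less RNA per cell cannot be told apart.

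Tlr13, the sensor of bacterial ribosomal RNA, was represented by 2 probes. On the first, the control mice had levels of 8.02, 8.30, 8.14 and 8.02, the HFD-CO mice 8.12, 8.06, 7.98 and 8.02, and the HFD-ED mice 8.17, 8.11, 8.08 and 7.84. The 3 diets overlapped, with control replicate 2 as the highest and HFD-ED replicate 4 as the lowest mouse. Differences were -0.069 ± 0.078 (SE) for HFD-ED versus control, -0.076 ± 0.078 for HFD-CO versus control and 0.0069 ± 0.078 for HFD-ED versus HFD-CO, with adjusted p of 0.838, 0.99996 and 0.990 in limma. On the second probe, closer to background, the control mice had levels of 7.34, 7.35, 7.30 and 7.35, the HFD-CO mice 7.33, 7.29, 7.402 and 7.32, and the HFD-ED mice 7.24, 7.24, 7.31 and 7.29. On this probe, 3 of 4 HFD-ED mice lay below the lowest control mouse, and replicate 3 lay within the control range. The differences of -0.065 ± 0.025 (SE) from control and -0.067 ± 0.025 from HFD-CO had unadjusted p of 0.0264 and 0.0235 and adjusted p of 0.424 and 0.487 in limma. Over the 12 mice the probes did not follow each other, with a Pearson r of -0.12 and a Spearman rho of -0.18, given as a description.

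Tlr3 and Tlr8, the sensors of double-stranded RNA and of RNA fragments, had narrow ranges close to background. The Tlr3 probe had levels of 7.18, 7.22, 7.22 and 7.16 in control, 7.27, 7.16, 7.23 and 7.18 in HFD-CO and 7.20, 7.19, 7.20 and 7.18 in HFD-ED mice. The HFD-ED mice lay inside the range of both other diets. The Tlr8 probe had levels of 7.16, 7.14, 7.22 and 7.15 in control, 7.19, 7.16, 7.16 and 7.14 in HFD-CO and 7.14, 7.14, 7.23 and 7.15 in HFD-ED mice. Here 1 mouse of the control and 1 of the HFD-ED group, replicate 3 in each, lay above 7.2 and the remaining mice overlapped. No difference of either probe was larger than 0.017 log2 units in size, and the limma intervals reached from -0.071 to 0.071 for Tlr3 and from -0.059 to 0.058 for Tlr8. Differences inside these intervals are compatible with the data, and the scale is compressed near background.

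Tlr9, the receptor of CpG DNA, gave no signal above background on either probe, so its diets were compared at background only. Its first probe had levels from 7.03 to 7.15 in control, from 7.08 to 7.15 in HFD-CO and from 7.06 to 7.12 in HFD-ED mice. Its second probe had levels from 7.07 to 7.13, from 7.06 to 7.10 and from 7.02 to 7.15 in the same order. No difference was larger than 0.0092 log2 units in size, with adjusted p from 0.9503 to 0.99996 in limma. The 2 probes had a Pearson r of -0.056 and a Spearman rho of -0.17 over the 12 mice.

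Tlr11, the profilin receptor, had the smallest p among the probes of the family in HFD-ED versus control. The control mice had levels of 7.46, 7.372, 7.47 and 7.38, the HFD-CO mice 7.42, 7.53, 7.30 and 7.34, and the HFD-ED mice 7.25, 7.26, 7.22 and 7.373. Replicates 1, 2 and 3 of HFD-ED were the lowest of the 12 mice, and replicate 4 overlapped with control by a small margin and with HFD-CO more widely. Means were 7.42 ± 0.051 (SD, n = 4) for control, 7.397 ± 0.10 for HFD-CO and 7.27 ± 0.068 for HFD-ED. HFD-ED differed from control by -0.15 ± 0.050 log2 units (SE), with an interval from -0.26 to -0.036, an unadjusted p of 0.0142 and an adjusted p of 0.381 in limma. HFD-ED versus HFD-CO gave -0.12 ± 0.050, an unadjusted p of 0.0318 and an adjusted p of 0.49999, and HFD-CO versus control gave -0.023 ± 0.050 and an adjusted p of 0.99996. These differences did not pass the test over all probes. The probe lies in the compressed range of the scale, with a 12-mouse mean of 7.36 beside a maximum of 7.33 for the background probes.

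With HFD-ED replicate 1 as the only mouse of its diet, a comparison chosen after the data had been seen, Tlr11 gave -0.17 against control and -0.15 against HFD-CO. The spread then came from the other diets alone, and adjusted p were 0.982 and 0.998 in limma. Without that mouse, the differences were -0.14 and -0.11. The part of the erythroid markers in the Tlr11 levels was not tested. The other profilin receptor, Tlr12, had levels of 7.13, 7.14, 7.19 and 7.16 in control, 7.15, 7.15, 7.15 and 7.15 in HFD-CO and 7.21, 7.15, 7.15 and 7.17 in HFD-ED mice. All 4 HFD-ED mice lay above the HFD-CO mean of 7.15, but the ranges overlapped. The differences of HFD-ED were 0.019 ± 0.017 (SE) from control and 0.023 ± 0.017 from HFD-CO, with adjusted p of 0.787 and 0.739 in limma, so that this probe near background had the opposite sign to that of Tlr11.

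Unc93b1, the transport protein on which these receptors depend, had levels of 11.43, 11.55, 11.34 and 11.39 in the control mice on its first probe. The HFD-CO mice had levels of 11.67, 11.35, 11.27 and 11.18, and the HFD-ED mice had levels of 11.44, 11.37, 10.98 and 11.13. HFD-ED replicates 3 and 4 were below every other mouse, whereas replicates 1 and 2 lay within the control range. Means were 11.42 ± 0.089 (SD, n = 4) for control, 11.37 ± 0.21 for HFD-CO and 11.23 ± 0.21 for HFD-ED. HFD-ED differed from control by -0.19 ± 0.12 log2 units (SE), with an interval from -0.46 to 0.066 and an adjusted p of 0.629 in limma. The other differences were -0.14 (interval -0.40 to 0.12) for HFD-ED versus HFD-CO and -0.058 (interval -0.32 to 0.20) for HFD-CO versus control. Without HFD-ED replicate 1 the difference from control was -0.27 (adjusted p of 0.384), without replicate 3 it was -0.11, and with replicate 1 alone it was 0.018. The difference from HFD-CO was -0.21 without HFD-ED replicate 1, -0.053 without HFD-ED replicate 3 and -0.036 without HFD-CO replicate 1.

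The second probe of Unc93b1 varied more between mice, over 0.95 log2 units against 0.69 on the first. Its levels were 8.25, 8.11, 8.09 and 8.22 in control, 8.83, 8.61, 7.88 and 8.31 in HFD-CO and 8.39, 8.06, 8.06 and 7.88 in HFD-ED mice. The HFD-CO mice spanned nearly the whole range of the 12 animals on this probe. HFD-CO versus control was 0.24 ± 0.17 log2 units (SE, adjusted p of 0.99996) and HFD-ED versus HFD-CO -0.31 ± 0.17 (adjusted p of 0.629) in limma, so that the first and the second probe had opposite signs in HFD-CO versus control. Over the 12 mice the probes had a Pearson r of 0.59 and a Spearman rho of 0.63.

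**Figure D2:**
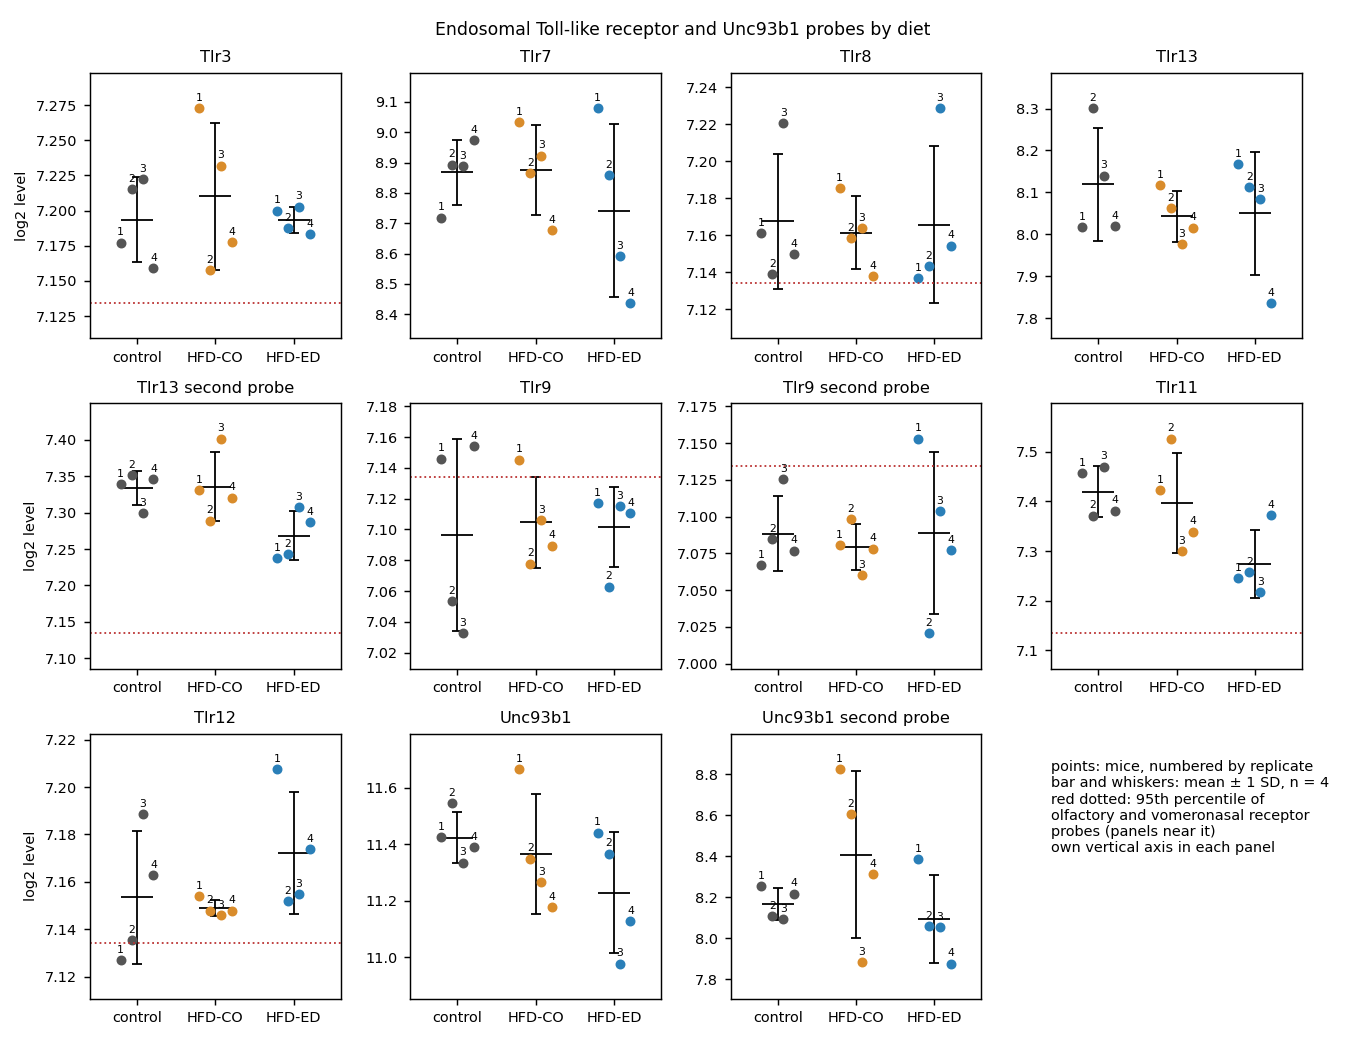
Each panel shows the log2 level (vertical axis, own scale per panel) of 1 probe in the 4 mice of each diet (horizontal axis), with points numbered by replicate, a bar at the mean and whiskers of 1 SD; the red dotted line, drawn in panels near it, is the 95th percentile of the background probes. The HFD-ED mice of the Tlr11 panel include the 3 lowest of the 12, and those of the Tlr7 panel run from 8.44 to 9.08.

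Over the family, no probe passed an adjusted p of 0.05 in limma, in any of the 3 comparisons. In HFD-ED versus control, 0 of 11 probes were called beside 0% of all 45281 probes, and 2 probes, Tlr11 and the second probe of Tlr13, had an unadjusted p under 0.05 and a lower level in HFD-ED. The share of all probes that did so was 5.67%, and 4.54% had an unadjusted p under 0.05 and a higher level, which no probe of the family had. No probe of the family had groups without overlap, beside 4.67% of all probes. A difference below 0 was found in 8 of 11 probes, beside 52.8% of all probes. With 1 probe per gene, 6 of 8 genes had a difference below 0, beside 54.1% of all genes, and the median was -0.036 log2 units, whereas the median over all genes was -0.0036. Without HFD-ED replicate 4 the median over the 8 genes was 0.0019.

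HFD-CO versus control gave no probe of the family with an unadjusted p under 0.05, beside 2.44% of all probes lower and 2.14% higher, and 0% of all probes called. No groups were free of overlap in the family, beside 3.01% of all probes, and 6 of 11 probes had a difference below 0, beside 50.8%. The median over the 8 genes was -0.0054 and that over all genes -0.0018. HFD-ED versus HFD-CO called none of the 11 probes, beside 0.00221% of all probes, which is 1 probe. The same 2 probes as against control were lower at an unadjusted p under 0.05, beside 4.7% of all probes lower and 4.6% higher, but both comparisons share the HFD-ED mice. None of the family was free of overlap, beside 3.97%, and 7 of 11 probes had a difference below 0, beside 52.4%, with a median over the 8 genes of -0.010, which was 0.0072 without HFD-CO replicate 1. With a variance trend and robust estimation in limma, 8 and 7 of all probes were called in the comparisons of HFD-ED with control and with HFD-CO, and none belonged to the family.

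**Figure D3:**
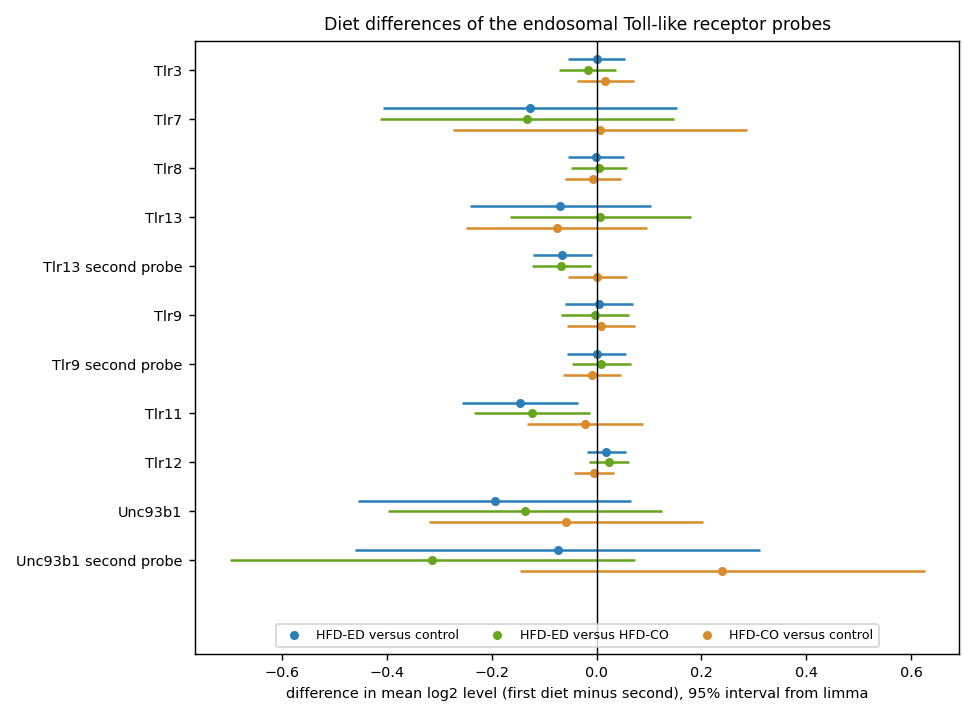
Points are differences in mean log2 level (horizontal axis, first diet minus second) of the 11 probes (vertical axis) in 3 comparisons marked by colour, and lines are intervals of 95% from limma, unadjusted for the number of probes. The intervals of Tlr11 and of the second Tlr13 probe do not reach 0 in the comparisons of HFD-ED, and all others include 0.

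Other genes of the pathway were described from lists with the receptors of the cell surface, the proteins of folding, transport and processing, and the signaling proteins. No gene of these lists passed an adjusted p of 0.05 in limma in any comparison. Counts of the lists stand beside the same shares of all features. The lists, here and for the cell markers below, use the brightest probe of each gene. The shares of probes cover all probes, of which 75.2% had a mean under 7.5, and shares among equally bright probes were not computed. In HFD-ED versus control 54.1% of all genes were below 0, 5.67% of all probes were lower and 4.54% higher at an unadjusted p under 0.05, and 4.67% had no overlap between the diets. In HFD-ED versus HFD-CO these shares were 53.0%, 4.7%, 4.6% and 3.97%, and in HFD-CO versus control 52.2%, 2.44%, 2.14% and 3.01%. Of 5 surface receptors, all 5 had a difference below 0 in HFD-ED versus control, with a median of -0.15 log2 units, and 1 had an unadjusted p under 0.05. Their mean deviated by -0.044, -0.088, -0.12 and -0.12 in HFD-ED replicates 1 to 4. This was Tlr4, the receptor for bacterial lipopolysaccharide, with a mean of 7.94 ± 0.083 (SD, n = 4) in HFD-ED and 8.20 ± 0.070 in control. Its difference of -0.26 ± 0.050 (SE), without overlap between the diets, had an adjusted p of 0.207. Tlr2, which recognizes bacterial lipopeptides, had a difference of -0.15 (adjusted p of 0.592), and its partner Tlr6 one of -0.054 (adjusted p of 0.672). In HFD-ED versus HFD-CO all 5 were again below 0, and 3 had an unadjusted p under 0.05. The differences were -0.25 for Tlr4, -0.25 for Tlr2 and -0.090 for Tlr6, with adjusted p of 0.337, 0.468 and 0.499. In HFD-CO versus control, 3 of 5 were below 0 with a median of -0.0074, and Tlr2, Tlr6 and the flagellin receptor Tlr5 had differences of 0.098, 0.036 and -0.0074.

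The list of folding, transport and processing held 23 measured genes. In HFD-ED versus control, 18 of 23 were below 0 with a median of -0.069 log2 units, and 7 lower and 1 higher had an unadjusted p under 0.05, beside 5.67% and 4.54% of all probes. The mean of the list deviated by 0.0083 and -0.00027 in HFD-ED replicates 1 and 2. In replicates 3 and 4 it deviated by -0.11 and -0.087. Erythroid markers deviated by -0.55, 0.82, 1.45 and 0.80 in HFD-ED replicates 1 to 4, and their part in this list was not tested. The smallest p belonged to Rab7b, a small GTPase of late endosomes, at -0.27 ± 0.069 (SE), Ap3d1, a subunit of the adaptor complex AP-3 that carries cargo to endosomal compartments, at -0.31 ± 0.089, and Ctsk, a lysosomal cysteine protease, at -0.14 ± 0.044. None of the 3, which were named for their small p, overlapped between the diets, as was the case for 4.67% of all probes, and their adjusted p were 0.281, 0.328 and 0.362 in limma. In HFD-ED versus HFD-CO, 14 of 23 were below 0 with a median of -0.054, and 5 lower and 1 higher had an unadjusted p under 0.05. Among them was 5430427O19Rik, the mouse gene also called Tasl, whose product links the endosomal transporter Slc15a4 to the transcription factor Irf5. It differed by -0.34 ± 0.062 (SE, adjusted p of 0.319) in HFD-ED versus HFD-CO and by 0.17 ± 0.062 (adjusted p of 0.99996) in HFD-CO versus control. Ctsk differed by -0.15 and Rnaset2b, a ribonuclease that prepares RNA fragments in lysosomes, by -0.22 in HFD-ED versus HFD-CO. In HFD-CO versus control, 13 of 23 were below 0 with a median of -0.018, and an unadjusted p under 0.05 was found for Ap3d1 at -0.20 and, in the other direction, for 5430427O19Rik. Dnase2a, a lysosomal deoxyribonuclease, had a difference of -0.17 and an unadjusted p of 0.0743 in limma.

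The signaling list held 21 measured genes, of which 16 were below 0 in HFD-ED versus control with a median of -0.11 log2 units. An unadjusted p under 0.05 was found for 4 of them, all lower, beside 5.67% of all probes. Their mean deviated by -0.041, -0.078, -0.059 and -0.0061 in HFD-ED replicates 1 to 4. Erythroid and neutrophil markers were high in replicates 2, 3 and 4, and their part in the 3 lists was not tested. Irf3, which acts downstream of Tlr3, had a difference of -0.31 ± 0.11 (SE) without overlap, Irf5, which acts downstream of Tlr7 and Tlr9, one of -0.26 ± 0.11, and Myd88, the adaptor of all of these receptors but Tlr3, one of -0.11 ± 0.050. Their adjusted p were 0.400, 0.475 and 0.486 in limma. In HFD-ED versus HFD-CO, 18 of 21 were below 0 with a median of -0.099, and 5 lower and 1 higher had an unadjusted p under 0.05. Tirap, an adaptor mainly of surface receptors, differed by -0.10, Ikbkg, the regulatory subunit of the I-kappa-B kinase, by -0.15 and Traf6, the ubiquitin ligase downstream of Myd88, by -0.24, with adjusted p of 0.441, 0.473 and 0.497. In HFD-CO versus control, 13 of 21 were below 0 with a median of -0.023 and 1 gene, Ikbkg at 0.16, had an unadjusted p under 0.05. Tirap and Irf7, the interferon regulatory factor of plasmacytoid dendritic cells, had differences of 0.067 and 0.14 there.

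Markers of the cells that could carry these transcripts also differed between the mice. Of 7 cDC1 markers, 6 were above background, among them the defining Xcr1 at a mean of 7.27 and Clec9a at 8.61, and Cd8a was at background. Their mean deviation was -0.087, -0.044, -0.19 and -0.11 log2 units in HFD-ED replicates 1 to 4, below every mouse of the other diets, which lay between -0.022 and 0.15. This separation was not particular to cDC1 markers. Natural killer cell markers deviated by -0.098 to -0.055 in HFD-ED mice and by -0.043 or higher in all others. The surface receptors deviated by -0.12 to -0.044 in HFD-ED mice and by -0.019 or higher in all others. On the linear scale the summed level of the 7 cDC1 markers ran from 1707 to 1938 in HFD-ED mice. It ran from 2022 to 2380 in control and from 1965 to 2129 in HFD-CO mice. In HFD-ED versus control 6 of these 7 genes had a difference below 0, beside 54.1% of all genes, and 3 were lower at an unadjusted p under 0.05, beside 5.67% of all probes, with none past the adjusted threshold. The part of the cDC1 markers in the Tlr11 difference was not tested.

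B cell markers, of which 6 of 7 were above background, had summed linear levels from 8462 to 11811 in HFD-ED, from 11693 to 13518 in control and from 11517 to 13032 in HFD-CO mice. The lowest deviation was -0.37 in HFD-ED replicate 3, and replicates 1, 2 and 4 had -0.0084, -0.11 and -0.10. Plasmacytoid dendritic cell markers were above background for 6 of 7, with Siglech at a mean of 9.13. Their summed levels ran from 4022 to 5733 in HFD-ED, from 4772 to 5611 in control and from 4821 to 7462 in HFD-CO mice. The list deviated by 0.455 in HFD-CO replicate 4, where pancreatic acinar markers deviated by 5.23. Its member Klk1 ran from 7.37 to 10.90 over the 12 mice. The part of pancreatic tissue in this list was not tested. Ranges of the red pulp macrophage markers were 25265 to 30095, 29712 to 32966 and 26996 to 30001 in the same order. Erythroid markers, 11 of 12 above background, ran from 32762 to 74421 in HFD-ED, from 30253 to 45344 in control and from 30422 to 49956 in HFD-CO mice. HFD-ED replicate 3 was the highest mouse for erythroid markers and the lowest on the first probe of Unc93b1. HFD-ED replicate 4 was the lowest for Tlr7 and on the first probe of Tlr13. Erythroid markers deviated by 0.82 in HFD-ED replicate 2 and by 0.80 in replicate 4. Replicate 2 lay within the control range for Tlr7, at 8.86, and on the first probe of Unc93b1, at 11.37. On the second probes the lowest mice were HFD-ED replicate 4 for Unc93b1 and HFD-ED replicate 1 for Tlr13. The part of these markers in the levels of Tlr7, Tlr13 and Unc93b1 was not tested.

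**Figure D4:**
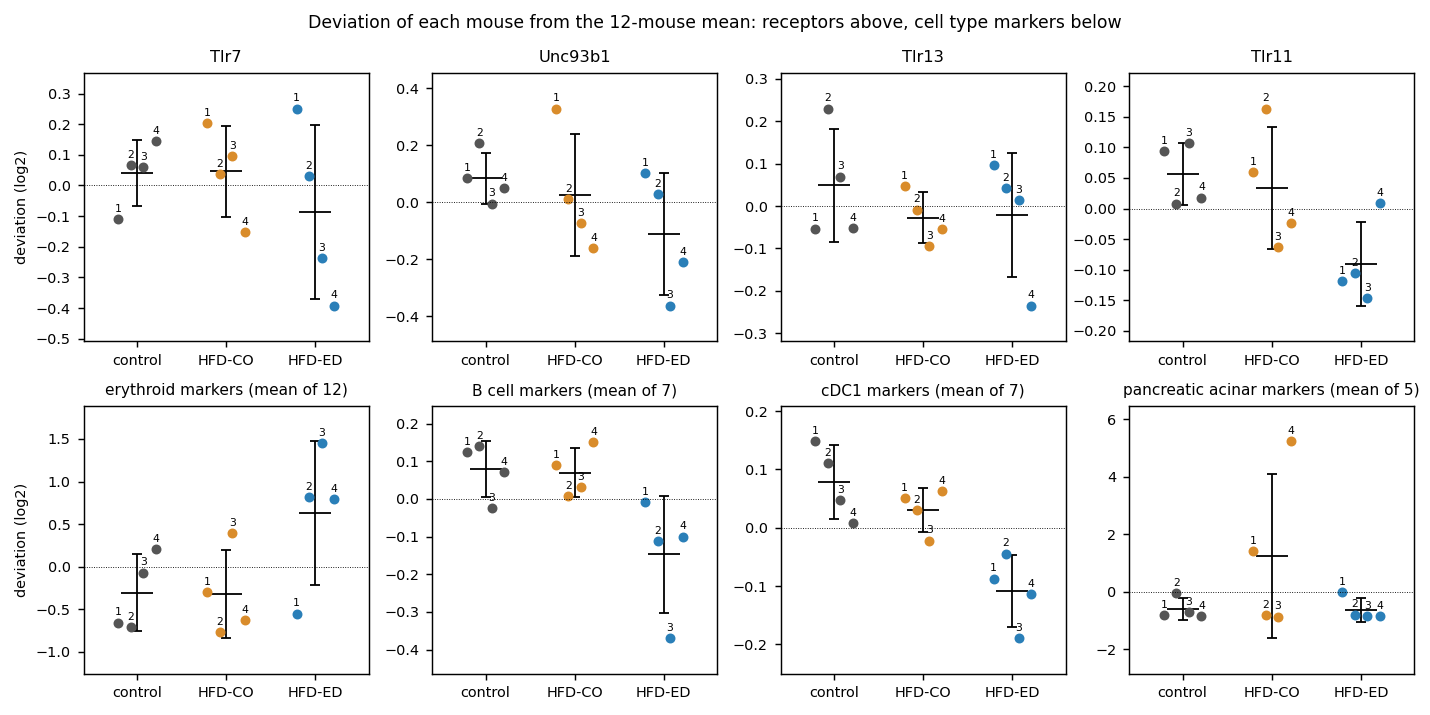
Deviation of each mouse from the 12-mouse mean in log2 units (vertical axis, own scale per panel) for 4 genes of the family in the upper row and for the mean of 4 lists of cell type markers in the lower row, by diet (horizontal axis), with bars at the mean and whiskers of 1 SD. HFD-ED replicate 1 lies among the other diets for erythroid markers and has the highest Tlr7 level, and the cDC1 markers of all 4 HFD-ED mice lie below those of the other 8.

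Across mice, Tlr7 and the first probes of Tlr13 and Unc93b1 had positive correlations with each other. The second probes were not used here, and that of Tlr13 had a Pearson r of -0.12 with the first. These correlations describe 12 mice whose arrays share 1 normalization and the cell makeup of each spleen, and they carry no test. Tlr7 and Unc93b1 had a Pearson r of 0.76 and a Spearman rho of 0.73, and an r of 0.73 with the diet means removed. Tlr7 and Tlr13 had an r of 0.59 and a rho of 0.52, and Tlr13 and Unc93b1 an r of 0.54 and a rho of 0.61. Of 7013 genes with a mean of 7.5 or more, the 3 with the highest r to Tlr7 were Dock11, a guanine nucleotide exchange factor (r of 0.91), Ppp1ca, a catalytic subunit of protein phosphatase 1 (0.91), and Bcap31, a protein of the endoplasmic reticulum (0.90). To Unc93b1 they were Wdfy1 (0.90), an endosomal protein, the cytokine gene Il33 (0.89) and the MHC class I gene H2-Q7 (0.89), with Spearman rho of 0.92, 0.87 and 0.70. To Tlr13 they were the interferon gamma receptor chain Ifngr1 (0.80), the ribosomal protein gene Rps21 (0.79) and Resf1 (0.78), so that its closest partners were less close than those of Tlr7 and Unc93b1.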

How the data were processed

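Spleen RNA of 12 mice was hybridized to Illumina MouseWG-6 v2.0 arrays, 1 per mouse. The authors read the bead signals in GenomeStudio and processed them with the lumi package (2.18.0 in the submitters' processing notes), with variance stabilization followed by quantile normalization. The deposited log2 values were used as they are. The slide of each array is not given in the sources used here, and detection p-values were not used. Symbols came from the platform annotation given with the series, in which 10378 probes have no symbol, 18 have several and 34885 have 1. In gene counts, medians and lists the probe with the highest mean stood for its gene, while all probes of the family were reported.

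A single limma model (version 3.58.1, under R 4.3.3) held all 3 diets, with default lmFit and eBayes and two-sided tests, and p-values were adjusted by Benjamini-Hochberg over all 45281 probes within each comparison. Calls were made at an adjusted p of 0.05. The p-values measure the spread between 4 mice per diet. Genes named were all members, the 3 genes with the smallest p of each pathway list, and the 3 genes most like each member with a mean of 7.5 or more. Of 145 listed pathway and marker genes, 130 had a probe, and the others were not analysed here. The members and lists were chosen with earlier results of these data known. Background was set at the 95th percentile of olfactory and vomeronasal receptor probes. Summed marker levels are sums of 2 to the power of the log2 value.

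Alternatives were the replicate number as a block, a variance trend with robust estimation, weights per array, leaving out dim probes, keeping 1 probe per symbol, other scalings, a fit of only the diets compared, adjustment over all comparisons, the mean over the probes of a gene, and leaving out each mouse. Of 12 pairs of mice with the same number on different diets, 4 correlated above 0.1, so the numbers were not taken as pairs. This check cannot exclude that mice of the same number shared a batch. HFD-ED replicate 1 as the only HFD-ED mouse was added after the data had been seen.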

Additional observations from a re-analysis of the deposited data

Results flagged for a closer look

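On the first probe of Tlr9, HFD-ED replicate 2 had a level of 7.06, while the other 3 HFD-ED mice had levels from 7.11 to 7.12. The gap to the nearest mouse was 0.882 of the range of the group, above the 95% limit of Dixon's outlier criterion for 4 samples. It was the 1 such group among 33 groups of 4 mice, and chance gives about 1 in 20. The probe was at background.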

How the results depend on the processing

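No probe of the endosomal receptors was called under any alternative or without any mouse, in any comparison. Tlr11 kept its sign in all 22 other settings, from -0.18 to -0.13 against control (adjusted p of 0.251 or higher in limma). Against HFD-CO it ran from -0.16 to -0.081 (0.389 or higher), and Tlr12 kept its sign in both comparisons of HFD-ED. Many of these settings could not change the difference of a gene with 1 probe, so their number is no measure of stability. Among them were the replicate block, the variance trend, the joint adjustment, the mean over probes and leaving out a mouse of the third diet. The number of probes called among all was small and moved. For HFD-ED versus HFD-CO, where 1 was called, it was 0 with the replicate block, with dim probes left out, with median and interquartile range scaling, with only the 2 diets compared and with adjustment over the 3 comparisons, 7 with a variance trend and robust estimation, and 3 with HFD-ED replicate 1 as the only HFD-ED mouse. For HFD-ED versus control, where 0 were called (4620 at an unadjusted p under 0.05), it was 8 with the variance trend and robust estimation, 3 with 1 probe per symbol and 3 with HFD-ED replicate 1 only. Without single mice it ran from 0 to 87 for HFD-ED versus control, with 87 without HFD-ED replicate 1, and from 0 to 46 for HFD-ED versus HFD-CO, with 46 without HFD-ED replicate 1. The replicate numbers were not taken as pairs, although a batch shared by mice of the same number was not excluded. With the block, 0 probes were called in HFD-ED versus HFD-CO, and Unc93b1 had an unadjusted p of 0.0361 and an adjusted p of 0.410 in HFD-ED versus control.

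With dim probes left out, 3 genes of the family stayed, and their median was -0.13 against control and -0.13 against HFD-CO, by construction over fewer genes. Without HFD-ED replicate 4 the median over the 8 genes against control was 0.0019, and without HFD-CO replicate 1 it was 0.0072 against HFD-CO. Signs of small differences turned, and the cause was not tested. With HFD-ED replicate 1 as the only HFD-ED mouse, the differences from control were 0.0064 for Tlr3, 0.21 for Tlr7, 0.048 for Tlr13 and 0.018 for Unc93b1, and those from HFD-CO were 0.20 for Tlr7, -0.025 for Tlr8, 0.012 for Tlr9 and 0.076 for Unc93b1. For Tlr13 in HFD-ED versus HFD-CO, array weights gave -0.030 and the mean over its probes -0.030. The mean over probes also gave -0.00034 for Tlr9 and 0.091 for Unc93b1 in HFD-CO versus control, and 0.0029 for Tlr9 in HFD-ED versus HFD-CO. Median and interquartile range scaling gave 0.00033 for Tlr3 in HFD-ED versus control.

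Leaving out 1 mouse at a time, differences of HFD-ED from control ran from -0.012 to 0.0095 for Tlr3, from -0.023 to 0.016 for Tlr8, from -0.016 to 0.024 for Tlr9 and from -0.11 to 0.0021 for Tlr13. Against HFD-CO they ran from -0.034 to 0.0042 for Tlr3, from -0.017 to 0.014 for Tlr8, from -0.012 to 0.010 for Tlr9 and from -0.032 to 0.078 for Tlr13. For HFD-CO versus control the ranges were -0.0043 to 0.034 for Tlr3, -0.047 to 0.072 for Tlr7, -0.016 to 0.011 for Tlr8, -0.013 to 0.027 for Tlr9, -0.066 to 0.0095 for Tlr11, -0.013 to 0.0071 for Tlr12 and -0.16 to 0.0043 for Unc93b1. Probes close to background limit what can be seen of Tlr3, Tlr8, Tlr9 and Tlr12.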

Other observations

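Other cells of the spleen were described by further marker lists, none of which held a gene past an adjusted p of 0.05 in limma. Beside the counts that follow, 54.1% of all genes were below 0 in HFD-ED versus control. At an unadjusted p under 0.05, 5.67% of all probes were lower there and 4.54% higher. In HFD-CO versus control these shares were 52.2%, 2.44% and 2.14%. All 7 neutrophil markers had a difference above 0 in HFD-ED versus control, with a median of 0.99 log2 units and 1 at an unadjusted p under 0.05. In HFD-ED versus HFD-CO the median was 1.52 and all 7 were higher at an unadjusted p under 0.05, beside 4.6% of all probes. In HFD-CO versus control all 7 were below 0 with a median of -0.56, and none had an unadjusted p under 0.05. The deviation of these markers from the 12-mouse mean was -0.33, 0.87, 2.04 and 0.61 in HFD-ED replicates 1 to 4. All 12 erythroid markers were above 0 in HFD-ED versus control with a median of 1.09, and 5 had an unadjusted p under 0.05. Of 6 natural killer cell markers, 5 were below 0 in HFD-ED versus control with a median of -0.14, 3 of them at an unadjusted p under 0.05. B cell markers had a median of -0.17, plasmacytoid dendritic cell markers of -0.11, red pulp macrophage markers of -0.099, T cell markers of -0.063 and monocyte markers of -0.033. Of 8 T cell markers, 6 had a difference below 0, as did 4 of 5 monocyte markers. In HFD-CO versus control, 4 of 6 natural killer cell markers were below 0 with a median of -0.11. Of these, 3 were lower at an unadjusted p under 0.05. Red pulp macrophage markers had a median of -0.11 in HFD-CO versus control, with 8 of 11 below 0. Pancreatic acinar markers deviated by 1.43 in HFD-CO replicate 1 and by 5.23 in HFD-CO replicate 4, which raised the 12-mouse mean. They deviated by -0.011 in HFD-ED replicate 1 and by -0.057 in control replicate 2, above the remaining mice, which had -0.87 to -0.72.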
